A study of Rattus norvegicus with 18 samples.

Results

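The genes described here encode proteins of striated muscle and of its LIM domain protein families, read in cultured bone marrow mesenchymal stem cells of rats on a high-fat diet (HFD) or a normal diet (ND). They are 10 genes: skeletal muscle actin Acta1, cardiac actin Actc1, cardiac calsequestrin Casq2, plakophilin Pkp2, the troponins Tnni2 and Tnnt2, and the LIM proteins Csrp1, Csrp2, Fhl1 and Fhl2. They were selected on their log2 intensity difference between HFD and ND at 2 months, which was known when they were gathered by name, so that difference is given below as a description, with no test. A probe set, the group of short probes that reads 1 transcript, was taken only where the platform annotation gave a member as its sole symbol. By that rule 14 of the 31099 probe sets belonged to 9 of the members, out of 14218 named genes on the array, and all 9 had a probe set bright enough to be tested, 12 probe sets in all. Actc1 had none of its own, since its 5 probe sets also name the smooth muscle actin Acta2, so its level could not be told apart from that of Acta2.

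Sprague-Dawley rats, 6 weeks old at the start, ate HFD (60% basal diet, 20% lard, 10% sucrose and 10% egg yolk powder) or ND (100% basal diet) for 1, 2 or 4 months. Stromal cells were grown by plating their whole marrow, and total RNA was read on Affymetrix rat arrays, 3 per diet and feeding time and 18 in all. The sample labels give passage 3 and the series design gives passage 1, a difference that could not be settled. The labels describe no genetic change, no batch and no scan date, and do not say whether marrow of several rats was pooled, so the p-values measure the spread between these arrays.

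Striated muscle contracts when calcium, released from a store in the sarcoplasmic reticulum where calsequestrin binds it, moves the troponin complex and lets myosin pull on actin filaments. The LIM proteins of the CSRP and FHL families sit on actin filaments, at the Z-disc and in the nucleus, where several of them act with the serum response factor SRF. In mesenchymal cells such as marrow stroma, SRF and its cofactors drive cytoskeletal genes in step with the state of the actin filaments.

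The DNA before the start of these genes is shown because the SRF binding motif, the CArG box, is the sequence classically linked to muscle actin genes. Each line gives the 250 bases before and the 50 bases after the start of a RefSeq transcript in the GRCr8 assembly, 5′ to 3′ on the gene's own strand, and the capitals mark a CArG box. Acta1 (chr19:68784145-68784444, minus strand) and Fhl1 (chrX:139638246-139638545, plus strand) were higher in HFD at 2 months and hold a box. Fhl2 (chr9:52954491-52954790, minus strand) holds a box and was not higher. Csrp2 (chr7:48235165-48235464, plus strand) was higher and holds none in this window. Casq2, whose window is not printed, was also higher and holds none, and a second Fhl1 window holds none.
Acta1: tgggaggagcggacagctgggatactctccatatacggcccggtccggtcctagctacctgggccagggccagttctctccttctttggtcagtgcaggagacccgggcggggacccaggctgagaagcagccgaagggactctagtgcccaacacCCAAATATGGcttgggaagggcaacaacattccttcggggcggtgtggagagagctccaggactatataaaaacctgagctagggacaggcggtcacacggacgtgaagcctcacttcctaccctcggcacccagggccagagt
Fhl1: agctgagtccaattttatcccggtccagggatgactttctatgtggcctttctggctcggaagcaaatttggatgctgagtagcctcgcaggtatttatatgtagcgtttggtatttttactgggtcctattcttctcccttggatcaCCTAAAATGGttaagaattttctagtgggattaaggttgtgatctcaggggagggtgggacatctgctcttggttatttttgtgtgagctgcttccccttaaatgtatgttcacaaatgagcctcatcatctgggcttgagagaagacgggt
Fhl2: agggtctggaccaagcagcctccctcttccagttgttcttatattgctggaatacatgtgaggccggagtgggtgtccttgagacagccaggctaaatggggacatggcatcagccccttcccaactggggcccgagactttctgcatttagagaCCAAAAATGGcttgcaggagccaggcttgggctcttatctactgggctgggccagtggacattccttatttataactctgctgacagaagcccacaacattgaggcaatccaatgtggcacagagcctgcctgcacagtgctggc
Csrp2: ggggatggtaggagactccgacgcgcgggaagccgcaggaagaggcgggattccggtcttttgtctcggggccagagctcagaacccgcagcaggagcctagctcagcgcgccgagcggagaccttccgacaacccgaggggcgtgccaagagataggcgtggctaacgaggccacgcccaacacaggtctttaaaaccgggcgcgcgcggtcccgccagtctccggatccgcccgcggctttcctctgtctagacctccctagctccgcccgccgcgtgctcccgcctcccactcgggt

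The box was searched as CC, then 6 bases that are each A or T, then GG, on both strands. It lay 94 bases before the start of Acta1 as CCAAATATGG, 102 bases before that of Fhl1 as CCTAAAATGG and 95 bases before that of Fhl2 as CCAAAAATGG. A second Fhl2 window held CCTTATATGG 58 bases before its start. Actc1 held CCAAATAAGG just after its start. In all, 4 of the 9 members with a window (5 of their 12 windows) held a CArG box, against 548 of the 33469 windows in the table, or 1.64%. The motif of MEF2, a muscle transcription factor, was found in Casq2 and Fhl2 and in 3.29% of all windows. The motif GGAATG, bound by TEAD factors, was found in Acta1, Fhl2 and Tnnt2 and in 14.2% of all windows. The E-box CANNTG, bound by MyoD among many factors, was found in 7 of the members and in 72.1% of all windows. The letters TATAAA were found in Acta1, Fhl1, Fhl2 and Tnni2 and in 14.2% of all windows. Pkp2 had no entry in the promoter table. A match is a description of the letters in the window and not of a bound site.

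All levels below are log2 of the deposited intensity, so that 1 unit is a doubling of the signal. Levels of different probe sets are not set against each other. Probe sets in the dimmest 30%, with a mean at or below 3.22 log2 units, were not tested. All 9 stromal surface markers, which check the label of marrow stroma, averaged above that threshold, with Thy1 at 11.71 to 12.13 log2 units over the 18 arrays. All 16 macrophage markers also averaged above it and varied widely: the summed intensity of the 13 with a value on every array lay between 592 and 22700. Of 9 endothelial markers 6 were below the threshold, Pecam1 with a highest value of 2.90. The other 3 averaged above it: Egfl7 read 6.36 to 6.90, Esam 4.93 to 6.97 and Tie1 2.56 to 4.91. Of the muscle progenitor markers, Myod1 read 1.85 to 2.32 and Myog 3.30 to 3.81 log2 units, while Pax7 and Myf5 were not analysed here.

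**Figure D1:**
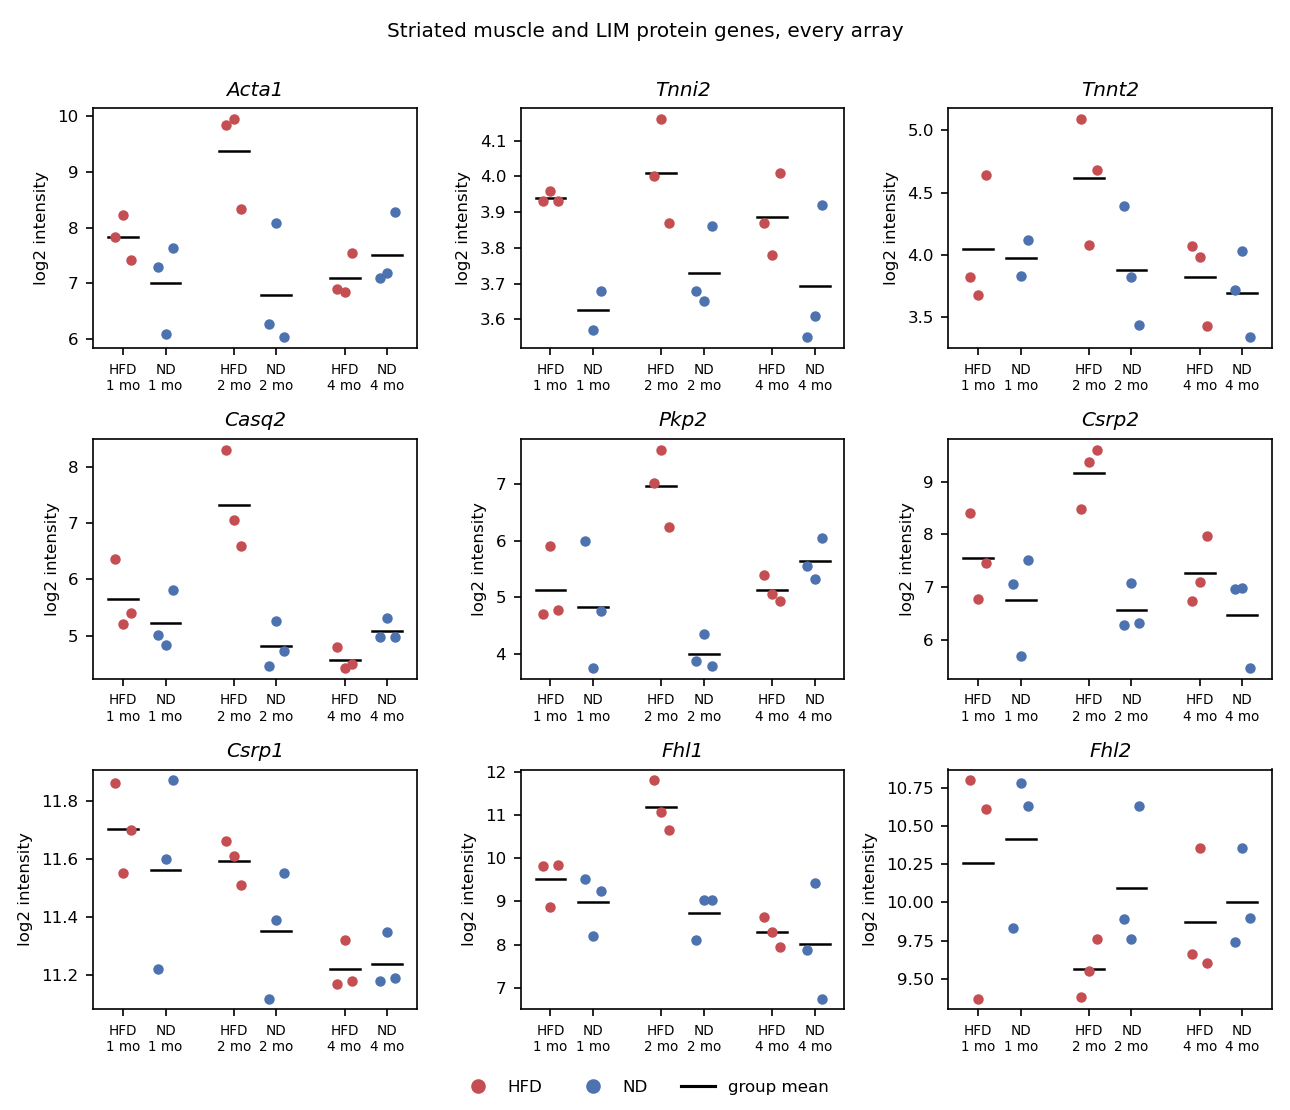
Log2 intensity of the brightest probe set of each of the 9 measured genes (1 panel each) on every array, by feeding time in months, with HFD to the left of ND. Points are arrays and the short lines are group means. The HFD 2-month arrays stand highest for Acta1, Casq2, Pkp2, Csrp2 and Fhl1.

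At 2 months 5 of the 9 measured genes stood at 5.49-fold to 7.75-fold the ND level in HFD cultures: Acta1, Casq2, Pkp2, Csrp2 and Fhl1. Tnnt2 and Tnni2 were higher by less, Csrp1 was close to its ND level and Fhl2 was lower. The HFD arrays lay wholly above the ND arrays for 6 of the 9 genes, those 5 and Tnni2, where 11.8% of all 21729 tested probe sets did so. Since the genes were chosen with this comparison in view, nothing is read from that count. In cultures measured in bulk, fewer cells of a type and less RNA per cell cannot be told apart.

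Acta1, the actin of skeletal muscle thin filaments, read 9.85, 9.95 and 8.33 log2 units in HFD at 2 months, against 6.27, 8.09 and 6.03 in ND. The lowest HFD array, replicate 3, was just above the highest ND array, replicate 2, and the others were far apart. The mean was 9.38 ± 0.91 in HFD and 6.79 ± 1.13 in ND (SD, n = 3 each), a difference of 2.58 ± 0.57 (SE) or 6-fold, which was 3.23 without ND replicate 2.

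Casq2, which holds calcium in the sarcoplasmic reticulum of the heart and of slow muscle, read 8.30, 7.05 and 6.60 in HFD at 2 months, against 4.46, 5.26 and 4.73 in ND. HFD replicate 1 stood above the other arrays, and all 3 HFD arrays were above the ND arrays by more than a unit. The difference was 2.50 ± 0.40, or 5.67-fold. A second Casq2 probe set gave 2.69, and both followed each other over the 18 arrays with a Pearson r of 0.98.

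Pkp2, an armadillo protein of the desmosomes that hold heart muscle cells together, read 7.03, 7.61 and 6.24 in HFD at 2 months, against 3.88, 4.35 and 3.78 in ND. The groups were far apart, and the difference of 2.95 ± 0.48, or 7.75-fold, was the largest among the 9 genes by their brightest probe sets. Part of the gap lay on the ND side, where the 2-month mean was 4.01 ± 0.31 (SD, n = 3), against 4.83 ± 1.12 at 1 month and 5.64 ± 0.37 at 4 months.

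Tnni2, the inhibitory troponin of fast skeletal muscle, read 4.00, 4.16 and 3.87 in HFD at 2 months, against 3.68, 3.65 and 3.86 in ND. The lowest HFD array was barely above the highest ND array, and the difference was 0.28 ± 0.12. Tnnt2, the troponin that ties the cardiac complex to tropomyosin, read 5.09, 4.08 and 4.68 in HFD, against 4.39, 3.82 and 3.44 in ND, and here the groups overlapped. Its difference was 0.74 ± 0.32, or 1.67-fold. Both probe sets lay near the bottom of the tested range, and a second Tnnt2 probe set, with a mean of 2.45, was below it and did not follow the first (r = -0.07 over 17 arrays).

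Csrp2, a protein with a pair of LIM domains known from vascular smooth muscle and fibroblasts, read 8.49, 9.38 and 9.61 in HFD at 2 months, against 6.28, 7.08 and 6.32 in ND. The groups were separated by more than a unit, with a difference of 2.60 ± 0.55, or 6.06-fold. Its relative Csrp1, an actin-bundling protein of smooth muscle and many other cells, read 11.66, 11.61 and 11.51 in HFD, against 11.12, 11.39 and 11.55 in ND. Those groups overlapped, and the difference was 0.24 ± 0.15, or 1.18-fold.

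Fhl1, a protein with LIM domains only that is abundant in skeletal muscle, read 11.80, 11.07 and 10.66 in HFD at 2 months, against 8.10, 9.03 and 9.04 in ND. No array overlapped, and the difference was 2.46 ± 0.56, or 5.49-fold. A second Fhl1 probe set gave 2.92, or 7.59-fold, and followed the first over the 18 arrays (r = 0.99). Another one, with a mean of 2.39, was too dim to be tested. Its relative Fhl2, best known from the heart and as a transcription cofactor, ran the other way, at 9.38, 9.55 and 9.76 in HFD, against 9.89, 9.76 and 10.63 in ND. Its difference was -0.53 ± 0.36, or 0.694-fold, with the groups meeting at 9.76. A second Fhl2 probe set read 8.96, 9.12 and 9.34 in HFD, against 9.51, 9.43 and 10.27 in ND, a difference of -0.60 with no overlap, as in 12.9% of all tested probe sets lower in HFD.

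Markers of other cells and states also differed at 2 months. The summed macrophage intensity was 2220 to 9610 in HFD, against 3140 to 19900 in ND, and 16 of 16 macrophage markers were lower in HFD (median -1.55), though none passed the limma test. The summed intensity of 17 proliferation genes was 860 to 1660 in HFD, against 1820 to 2600 in ND, without overlap. All 20 proliferation genes tested were lower in HFD (median -0.71), and again none passed. The same 20 were lower in HFD at 4 months as well (median -0.67, none passing). The part of these shifts in the members' difference was not tested. On ND replicate 3 the macrophage sum of 3140 lay inside the HFD range. There Acta1 read 6.03, Pkp2 3.78, Casq2 4.73, Csrp2 6.32 and Fhl1 9.04. Within HFD at 2 months the macrophage and proliferation sums were lowest on replicate 1 (2220 and 860) and highest on replicate 3 (9610 and 1660). On replicates 1 and 3 Acta1 read 9.85 and 8.33, Pkp2 7.03 and 6.24, and Casq2 8.30 and 6.60. Fhl1 read 11.80 and 10.66 there, and Csrp2, the other way, 8.49 and 9.61. These are single arrays, and nothing is read from them.

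**Figure D2:**
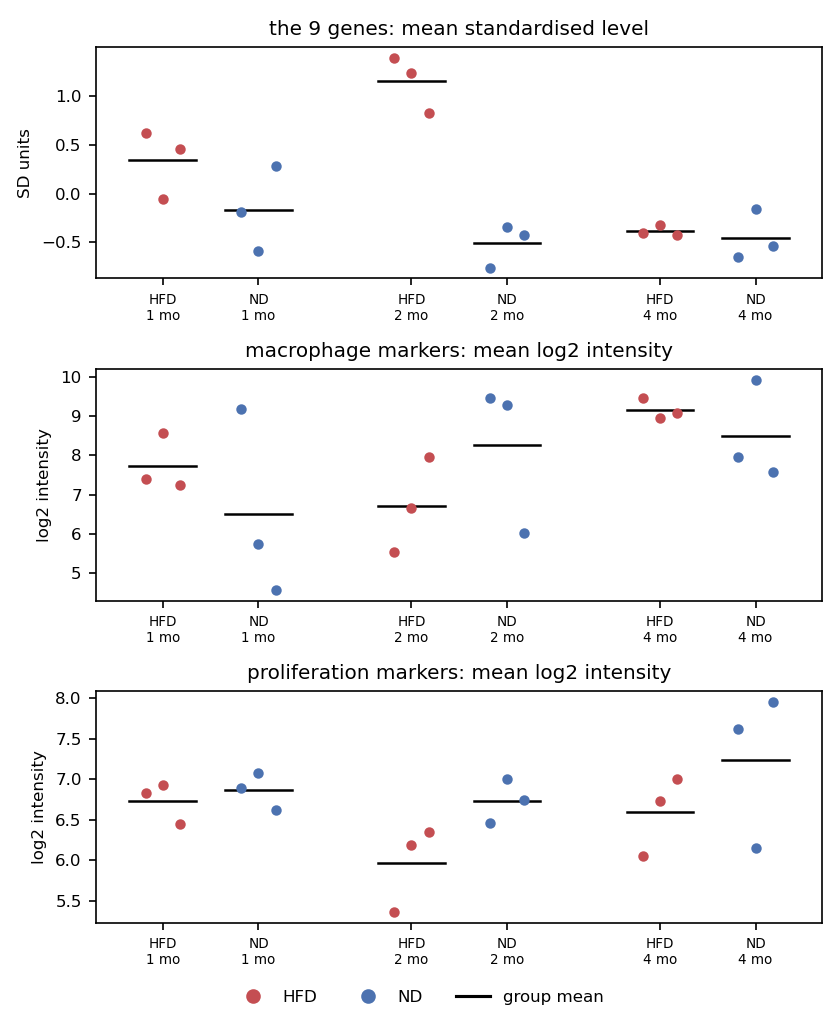
The 3 panels run by array and feeding time in months, HFD to the left of ND: the mean standardised level of the 9 genes (SD units), and the mean log2 intensity of the macrophage markers and of the proliferation markers. Points are arrays and the short lines are group means. At 2 months the proliferation mean was 5.96 ± 0.53 in HFD and 6.74 ± 0.27 in ND, and the macrophage mean was 6.72 ± 1.21 in HFD and 8.26 ± 1.93 in ND (SD, n = 3 each).

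The 5 shared probe sets of Acta2 and Actc1 showed smaller differences. In the 4 bright enough to be tested HFD minus ND at 2 months was 0.47, 0.32, 0.41 and 0.15, and at 4 months it was -0.11, 0.05, -0.05 and 0.14.

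**Figure D3:**
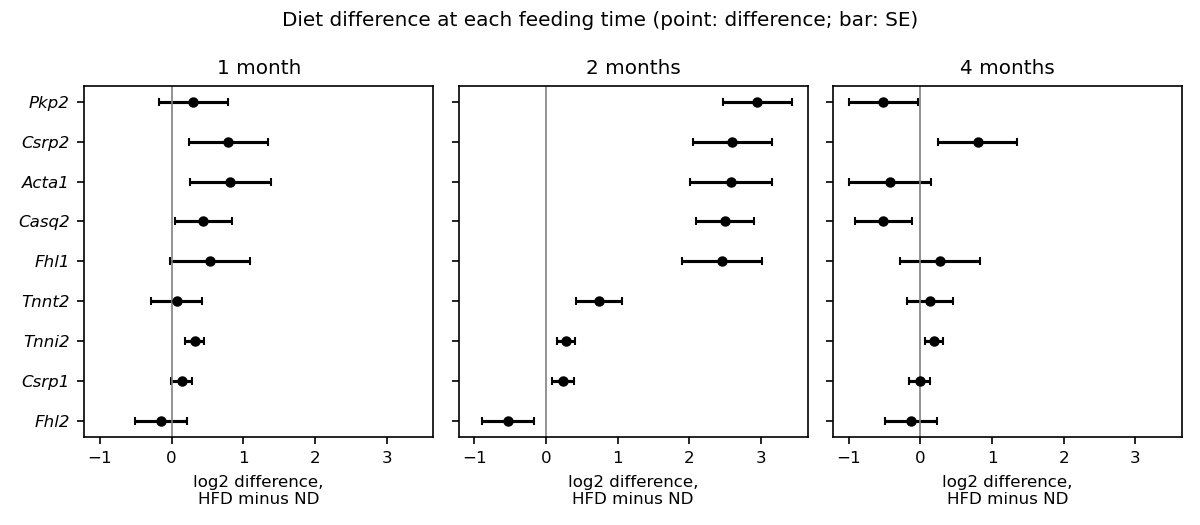
Difference HFD minus ND in log2 intensity for each of the 9 genes at 1, 2 and 4 months of feeding. Points are fitted differences and the bars are 1 standard error from the limma fit. The 2-month differences of 5 genes lie between 2.46 and 2.95, whereas those at 1 and 4 months lie between -0.52 and 0.82.

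The diet difference was then tested at 1 and 4 months, apart from the comparison on which the genes were selected. Earlier results of these data were known when the genes and tests were chosen. The members' p-values below carry that limit. At 1 month none of the 9 genes passed at an adjusted p under 0.05, as none of the 21729 tested probe sets did (0% called), where the lowest adjusted p of any probe set was 0.0513. Of the 9 genes 8 had a positive difference, with a median of 0.32, beside a median of -0.06 over all tested genes, 37.4% of which were positive. At an unadjusted p under 0.05 stood 1 of the 9, Tnni2, beside 9.77% of all tested probe sets.

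Tnni2 at 1 month read 3.93, 3.96 and 3.93 in HFD, against 3.57 and 3.68 in ND, where the first replicate had no value. It was the only member without overlap between the diets, where 5.92% of all tested probe sets were higher in HFD without overlap. Only 1066 of those 21729 probe sets lacked that ND array. The share thus rests mostly on 3 ND arrays, against 2 for Tnni2, which makes a lack of overlap easier for Tnni2. The difference was 0.32 ± 0.13 (limma adjusted p = 0.422).

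Acta1 at 1 month read 7.84, 8.23 and 7.42 in HFD, against 7.30, 6.08 and 7.63 in ND. The groups overlapped, with a difference of 0.82 ± 0.57 (limma adjusted p = 0.684), or 0.36 without ND replicate 2. Csrp2 read 8.40, 6.77 and 7.46 in HFD, against 7.05, 5.69 and 7.51 in ND. It too overlapped, at 0.79 ± 0.55 (adjusted p = 0.686), or 0.26 without the same ND array. Fhl1 read 9.82, 8.88 and 9.84 in HFD, against 9.51, 8.20 and 9.23 in ND, a difference of 0.53 ± 0.56 (adjusted p = 0.810) with overlap, or 0.14 without that array. Casq2 read 6.36, 5.21 and 5.40 in HFD, against 5.01, 4.83 and 5.82 in ND. Its difference was 0.44 ± 0.40 (adjusted p = 0.772), and without HFD replicate 1 it was 0.09. Pkp2 differed by 0.30 ± 0.48 (adjusted p = 0.898), with ND arrays as far apart as 3.75 and 5.99 and, without ND replicate 2, a difference of -0.24. Csrp1, Tnnt2 and Fhl2 differed by 0.14 ± 0.15, 0.07 ± 0.36 and -0.15 ± 0.36. The ND arrays at 1 month were uneven in their macrophage content, with sums of 592 to 18600 against 7360 to 16100 in HFD, and its part in these differences was not tested.

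At 4 months none of the 9 genes passed either, where 0% of the tested probe sets did and the lowest adjusted p of any was 0.999. At an unadjusted p under 0.05 stood 0 of the 9 genes, beside 3.73% of all tested probe sets. The differences were positive for 4 of the 9, with a median of -0.01, and -0.01 was also the median of all tested genes. Casq2 read 4.80, 4.43 and 4.50 in HFD, against 4.98, 5.32 and 4.98 in ND. Every HFD array lay below every ND array, as in 4.73% of all tested probe sets, and the difference was -0.52 ± 0.40 (limma adjusted p = 0.999). The second Casq2 probe set gave -0.47, with overlap.

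Acta1 at 4 months read 6.89, 6.85 and 7.54 in HFD, against 7.09, 7.18 and 8.28 in ND, a difference of -0.42 ± 0.57. Pkp2 read 5.39, 5.06 and 4.93 in HFD, against 5.55, 5.33 and 6.05 in ND, a difference of -0.52 ± 0.48. For both genes the groups overlapped. Csrp2 read 6.73, 7.10 and 7.96 in HFD, against 6.96, 6.98 and 5.46 in ND, a difference of 0.80 ± 0.55. Fhl1 read 8.63, 8.28 and 7.94 in HFD, against 7.87, 9.42 and 6.75 in ND, a difference of 0.27 ± 0.56. The ND arrays of Fhl1 spanned more than the whole HFD group, and without ND replicate 3 its difference was -0.36. Tnni2, Tnnt2, Csrp1 and Fhl2 differed by 0.19 ± 0.12, 0.13 ± 0.32, -0.01 ± 0.15 and -0.13 ± 0.36. Each of these 8 genes had a limma adjusted p of 0.999.

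Averaged over 1 and 4 months, 0.0368% of the tested probe sets passed, or 8 of them, and no member was among these. The difference furthest from 0 relative to its error was that of Tnni2, 0.25 ± 0.09 (limma adjusted p = 0.332), and it was the only member of the 9 at an unadjusted p under 0.05, beside 10.6% of all tested probe sets. Csrp2 was higher by 0.80 ± 0.39 (adjusted p = 0.499). The diet difference at 4 months minus that at 1 month was also tested, and 0% of probe sets passed. In it 0 of the 9 genes stood at an unadjusted p under 0.05, beside 3.26% of all tested probe sets. It was -1.25 ± 0.81 for Acta1, -0.95 ± 0.56 for Casq2 and -0.82 ± 0.68 for Pkp2, each with an adjusted p of 1.

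Within HFD most of the members stood highest at 2 months. The HFD 2-month group had the highest mean of the 6 groups for 7 of the 9 genes, all but Csrp1, highest in HFD at 1 month, and Fhl2, highest in ND at 1 month. Between 1 and 2 months in HFD the mean differed by 1.55 for Acta1, 1.66 for Casq2, 1.83 for Pkp2, 1.62 for Csrp2 and 1.67 for Fhl1. Between 2 and 4 months it differed by -2.29 for Acta1, -2.74 for Casq2, -1.83 for Pkp2, -1.90 for Csrp2 and -2.90 for Fhl1. The 2-month arrays lay wholly above the 1-month arrays for 5 of the 9 genes (7.45% of all tested probe sets), and the 4-month arrays wholly below the 2-month ones for 7 (14.1%). These values share the 2-month HFD arrays with the comparison above and are given with no test. In the order of group means below HFD at 2 months, neighbouring groups were close for Acta1 and Csrp2. For Acta1 HFD at 1 month averaged 7.83 ± 0.41 and ND at 4 months 7.52 ± 0.66 (SD, n = 3 each). Next came HFD at 4 months with 7.09 ± 0.39 and ND at 1 month with 7.00 ± 0.81. Each neighbouring pair differed by less than the larger SD of the pair. The same held for Csrp2, where HFD at 1 month averaged 7.54 ± 0.82, HFD at 4 months 7.26 ± 0.63, ND at 1 month 6.75 ± 0.95, ND at 2 months 6.56 ± 0.45 and ND at 4 months 6.47 ± 0.87. Pkp2 was more spread out below HFD at 2 months, with 5.64 ± 0.37 in ND at 4 months at the top and 4.01 ± 0.31 in ND at 2 months at the bottom.

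The change over feeding time was tested between 4 and 1 months in each diet, with the same arrays as the diet differences at those times. In HFD 0 of the 9 genes passed, as 0% of all probe sets did. Of the 9 differences 8 were negative and that of Pkp2 was 0.00, with a median of -0.39 beside 0 over all tested genes, and 3 of the 9 stood at an unadjusted p under 0.05, beside 7.92% of probe sets. Csrp1 read 11.17, 11.32 and 11.18 at 4 months, against 11.86, 11.55 and 11.70 at 1 month. The groups did not overlap, and the difference was -0.48 ± 0.15 (limma adjusted p = 0.456). Casq2 was lower at 4 months by -1.08 ± 0.40 (adjusted p = 0.551), and Fhl1 by -1.23 ± 0.56 (adjusted p = 0.622). These 3 genes had no overlap between the times, where 8.03% of all tested probe sets were lower at 4 months without overlap. Acta1 was at -0.74 ± 0.57 (adjusted p = 0.752).

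In ND 0 of the 9 genes passed between 4 and 1 months, again beside 0% of probe sets. The median was -0.27, with 3 of the 9 positive, beside -0.03 over all tested genes. Csrp1 differed by -0.33 ± 0.15 (limma adjusted p = 0.527) and was the only member at an unadjusted p under 0.05, beside 9.39% of probe sets. Pkp2 was at 0.81 ± 0.48 (adjusted p = 0.629) and Acta1 at 0.51 ± 0.57 (adjusted p = 0.806). Macrophage markers moved over the same interval, with 16 of 16 higher at 4 months in HFD (median 1.18) and in ND (median 2.40), none passing. All 20 proliferation genes were higher at 4 months in ND (median 0.40), again with none passing. Their part in the members' differences was not tested.

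The members did not all vary together from array to array. Over the 18 arrays, the Pearson r was 0.84 between Acta1 and Pkp2, 0.82 between Acta1 and Casq2, 0.86 between Casq2 and Fhl1, and 0.79 between Csrp2 and Fhl1. The 5 genes that stood high in HFD at 2 months share those 3 arrays, and the correlations include them. Fhl2 had negative values with all 5, at -0.65 with Pkp2, -0.55 with Acta1, -0.25 with Csrp2, -0.23 with Casq2 and -0.13 with Fhl1. Csrp1 had r of 0.60 with Fhl1, 0.59 with Casq2, 0.47 with Fhl2, 0.41 with Csrp2, 0.31 with Acta1 and 0.01 with Pkp2. These values describe arrays that share groups and cultures, and carry no test.

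**Figure D4:**
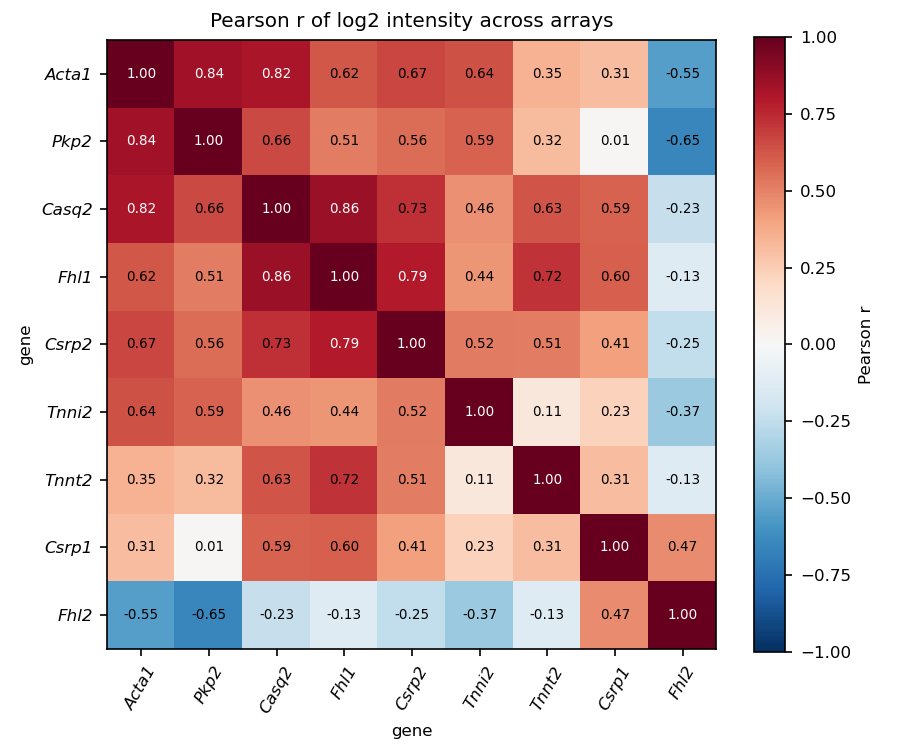
Pearson correlation of log2 intensity over the arrays for each pair of the 9 genes (17 arrays where Tnni2 or Tnnt2 is involved, otherwise 18). The colour scale runs between -1 and 1. Every pair without Fhl2 has a positive value, from 0.01 for Csrp1 with Pkp2 to 0.86 for Casq2 with Fhl1. Fhl2 is negative with Pkp2 (-0.65) and Acta1 (-0.55).

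The genes most like each member were found among 10557 named genes by Pearson r over the 18 arrays. These include the HFD arrays at 2 months, on which the members were selected and most of them stood highest. Any other gene that stood high on those arrays can rank near the top for that alone. Each r below was also picked for being high among all the genes compared. The values carry no test, and likeness apart from the 2-month arrays was not tested. Acta1 was most like Mfge8 (r = 0.95), a secreted glycoprotein, Pmepa1 (0.93), a TGF-beta-induced membrane protein, and the ubiquilin Ubqln2 (0.91). Ubqln2 (0.92) and Mfge8 (0.86) also led for Pkp2, followed by Depp1 (0.86). Casq2 was most like Avpi1 (0.93), Tppp (0.92), a tubulin-binding protein, and the prion protein Prnp (0.91). Csrp2 was most like Enpp1 (0.91), which makes pyrophosphate, then the calpain inhibitor Cast (0.88) and Phactr4 (0.87). Fhl1 was most like C1qtnf3 (0.93), the kinase Stk39 (0.92) and the stress gene Gadd45b (0.90). Csrp1 stood with other genes of the actin cytoskeleton, namely smooth muscle actin Acta2 (0.94), the LIM protein Lims2 (0.91) and the actinin Actn4 (0.91). Fhl2 was most like Plagl1 (0.89), Cdk14 (0.89) and the talin Tln2 (0.88). Over 17 arrays, Tnni2 was most like Hapln2, Arid3b and Zbtb7c (0.85 each), and Tnnt2 was most like Zgpat (0.82), Fbxo6 (0.82) and Inpp5k (0.78). The mean of the members' standardised levels was most like Gadd45b (0.94), the mitochondrial calcium channel Mcu (0.93) and the filamin-binding Rflnb (0.92), followed by Tmem119, Stk39 and Gadd45g (0.91 each) and by Schip1 and C1qtnf3 (0.90 each).

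Genes of the same pathways other than the members were tested at 2 months in 6 lists. The lists too were chosen with earlier results of these data known, and all their adjusted p-values carry that limit. Of 145 of them on the array 44 averaged below the threshold of intensity and 101 were tested. Of these 1 rose in HFD and 100 did not pass, with 69 positive differences. Over all named genes 44.7% of the differences were positive, 1.10% rose, 1.39% fell and the median was -0.04. Among all tested probe sets 2.54% passed.

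The gene that rose was Myocd, a cofactor of SRF in heart and smooth muscle. It read 6.75, 6.11 and 4.48 in HFD, against 3.60, 3.71 and 4.08 in ND. HFD replicates 1 and 2 stood well above every ND array, and replicate 3 was just above the highest of them. The difference was 1.98 ± 0.45 (limma adjusted p = 0.0357). The call held in 19 of 27 other settings, with limma adjusted p between 0.00135 and 0.185. It was lost with the replicate block and with only the arrays compared. It was also lost without ND replicate 1 or 2 or HFD replicate 1 or 2 at 2 months, and without HFD replicate 1 or 2 at 4 months. Its list of SRF and TEAD cofactors and targets had 15 of 17 genes positive, with a median of 0.23, and the other 16 did not pass.

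Of the sarcomere genes, 15 of 42 on the array were tested and none passed, with 11 positive and a median of 0.19. Mybph, a myosin-binding protein, read 5.00, 5.19 and 4.87 in HFD, against 4.40, 4.18 and 4.63 in ND, without overlap, at 0.61 ± 0.16 (adjusted p = 0.0537). The slow muscle troponin Tnni1 was at 0.68 ± 0.22 (adjusted p = 0.102). The other 27 averaged below the threshold, among them creatine kinase Ckm with values of 2.30 to 3.16 and myoglobin Mb with 2.15 to 2.76 over the 18 arrays. Likewise the slow myosin Myh7 read 2.10 to 2.75 and titin Ttn 2.73 to 3.42. Others were well above the threshold on all arrays, among them the probe set of the fast myosin Myh1 with 8.93 to 9.77 and the troponin C gene Tnnc1 with 4.82 to 6.67.

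Of 11 tested sarcoplasmic reticulum genes none passed (7 positive, median 0.15). Fkbp1b, which binds the ryanodine receptor, was at 1.09 ± 0.32 (adjusted p = 0.0815) and the receptor Ryr3 at -1.40 ± 0.56 (0.181). Of 11 tested desmosome and junction genes none passed (5 positive, median -0.03). The gap junction protein Gja1 was at -1.14 ± 0.33 (0.0772) and N-cadherin Cdh2 at -1.04 ± 0.37 (0.136). Of 37 tested LIM protein genes none passed (23 positive, median 0.18), with Mical2 at 1.41 ± 0.42 (0.0815) and Pdlim1 at 0.91 ± 0.26 (0.0762). Of 10 tested myogenic regulators none passed (8 positive, median 0.19), with Tbx5 at 0.92 ± 0.26 (0.0709) and Mef2c at 0.74 ± 0.26 (0.132). All values in parentheses after a difference are limma adjusted p.

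**Figure D5:**
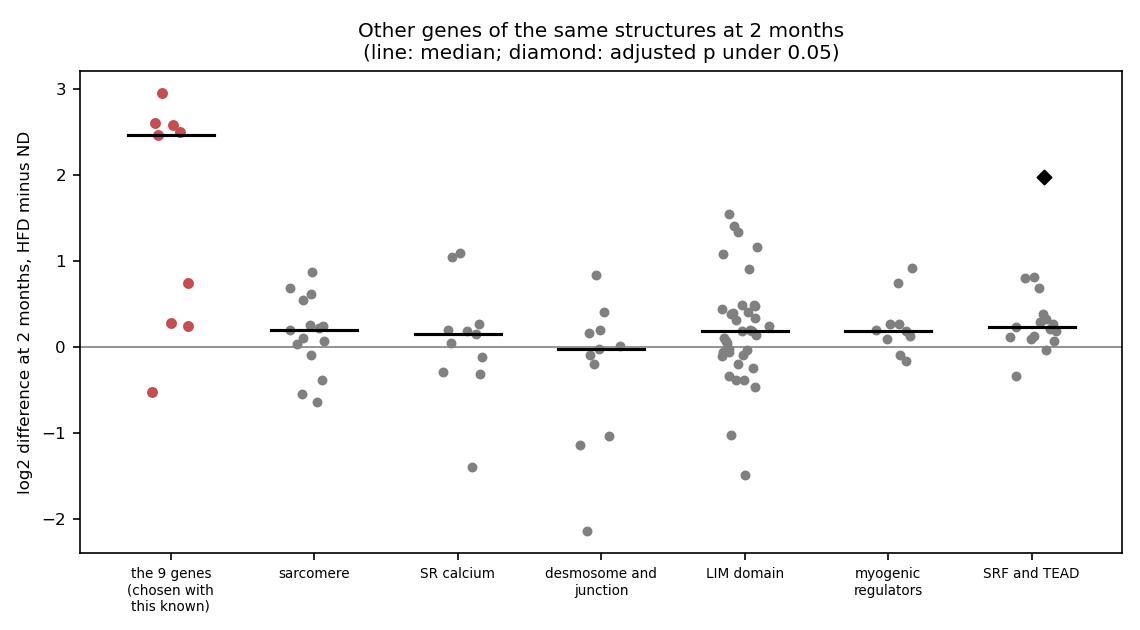
Difference HFD minus ND at 2 months in log2 intensity, with the 9 genes at the left and then the tested genes of the 6 lists that hold none of them. Each point is a gene, lines are medians and a diamond marks an adjusted p under 0.05. The list medians lie between -0.03 and 0.23, beside 2.46 for the 9 genes, and the diamond is Myocd at 1.98.

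At 1 and 4 months none of these 101 genes passed, and neither did any between 4 and 1 months in HFD or ND. The LIM list had a median of -0.05 at 1 month and 0.01 at 4 months. Between 4 and 1 months it was at -0.17 in HFD, with 27 of 37 genes negative, and at -0.23 in ND, with 30 of 37 negative. The SRF and TEAD list was at -0.24 in HFD and -0.25 in ND over that interval, with 15 of 17 genes negative in each. Over all named genes 50.3% of these differences were positive in HFD and 43.6% in ND.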

How the data were processed

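The members, gene lists and tests described here were chosen with earlier results of these data known. Per the labels, total RNA was hybridised to Affymetrix rat arrays, and per the submitters' processing notes the authors summarised probe sets with RMA. The deposited values are intensity on a linear scale (2.52 to 9915, array medians 25.4 to 27.1), and they were used as log2. The values of ND 1-month replicate 1 were out of register with the probe names by 1343 rows. Moved down by that number, they correlated at 0.990 with the average of the remaining arrays, against 0.0909 as deposited. The first 1343 probe sets then lack a value on that array, and Tnni2 and Tnnt2 are among them, so their ND 1-month mean rests on 2 arrays.

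Symbols came from the platform annotation (20832 probe sets with 1 symbol, 436 with several, 9831 without). The 57 control probe sets and the dimmest 30% were left out. The other 21729 probe sets, with 11446 named genes each read by its brightest probe set, were fitted with 1 mean per group over all 18 arrays in limma 3.58.1 (R 4.3.3). Tests were two-sided with Benjamini-Hochberg adjustment over all tested probe sets, and passed at an adjusted p under 0.05. The 9 genes were tested in 6 comparisons whose differences use no 2-month array, while the estimate of the spread came from all 18 arrays. The 3 arrays per group limit the precision. The procedure was tested on simulated data.

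From the lists, the text names the genes that passed at 2 months or, where none did, the 2 of largest moderated t. For each member it names the 3 genes of highest Pearson r. Alternatives covered the filter, normalization, variance model, array weights, the arrays fitted, averaging of probe sets, a replicate block and leaving out each array.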

Additional observations from a re-analysis of the deposited data

Results flagged for a closer look

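Casq2 stood apart in opposite directions at 2 feeding times. At 2 months every HFD array was above every ND array, with a difference of 2.50 log2 units, and at 4 months every HFD array was below every ND array, with a difference of -0.52. The difference between these 2 values was not tested, because the 2-month value took part in the choice of the gene. At 4 months alone the difference did not pass (limma adjusted p = 0.999).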

How the results depend on the processing

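The genes' values were recomputed in 28 settings, 18 of which leave out 1 array. Of 1488 values 1423 kept their direction and their side of the threshold, 64 changed sign and 1 passed. That was Csrp1 at 4 minus 1 month in HFD, at -0.51 with array weights (limma adjusted p = 0.0356). The count of the 9 genes called was 1 there, beside 559 of all 21729 tested probe sets, where the main fit called 0. With any 1 array left out, 0 of the 9 were called. The cause of the changes below was not tested.

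The number of probe sets called moved more. At 1 month it was 0, against 18 with the dimmest 50% left out, 20 with median centring, 30 with array weights, and 1 with a trended robust variance or only probe sets with a value on every array. For the average of 1 and 4 months it was 8, against 15 with the dimmest 50% left out, 1 with quantile normalization, 25 with median centring, 113 with array weights, and 0 with only the arrays compared or with probe sets averaged per gene. For 4 minus 1 month in HFD it was 0, against 559 with array weights and 1 with only the arrays compared. At 2 months it was 552, against 4511 with array weights, 317 with the replicate block and 2 with only the arrays compared. Leaving out 1 array gave 0 to 2 calls at 1 month, 48 to 1261 at 2 months, 0 to 1 at 4 months, 0 to 18 for the average, and 0 to 2 in HFD and 0 to 1 in ND for 4 minus 1 month.

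Some values of single genes changed sign. With array weights they were 0.03 for Csrp1 and 0.06 for Fhl2 at 4 months, 0.03 for Fhl2 and 0.00 for Casq2 averaged, 0.22 for Pkp2 at 4 minus 1 month in HFD, and -0.08 for Tnnt2 and -0.45 for Csrp2 in the diet difference at 4 minus 1 month. That Csrp2 value was -0.03 with quantile normalization, which put Csrp1 at 4 months at 0.02, and -0.01 with median centring. Tnnt2 at 2 months was 0.34 with array weights, and at 1 month it was -0.03 with the replicate block. On average no pairing by replicate number was seen: the residuals of same-numbered arrays had a mean r of -0.0254 over 45 pairs. The 9 diet pairs ran from -0.57 to 0.44, with 3 over 0.1. With 3 arrays per group this cannot tell whether arrays were paired within a feeding time.

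With 1 array left out, the following ranges crossed 0. At 1 month they were -0.24 to 0.88 for Pkp2, -0.22 to 0.25 for Tnnt2, -0.04 to 0.29 for Csrp1 and -0.44 to 0.29 for Fhl2. At 4 months they were -0.05 to 0.33 for Tnnt2, -0.06 to 0.04 for Csrp1, -0.36 to 0.97 for Fhl1 and -0.37 to 0.05 for Fhl2. For the average they were -0.03 to 0.39 for Acta1, -0.22 to 0.11 for Casq2, -0.38 to 0.18 for Pkp2, -0.05 to 0.20 for Tnnt2, -0.02 to 0.14 for Csrp1 and -0.29 to 0.08 for Fhl2. For the diet difference at 4 minus 1 month they were -0.12 to 0.35 for Tnnt2, -0.30 to 0.02 for Csrp1, -0.50 to 0.54 for Csrp2, -0.90 to 0.44 for Fhl1 and -0.42 to 0.32 for Fhl2. For 4 minus 1 month in HFD they were -0.21 to 0.38 for Pkp2, -0.40 to 0.08 for Tnnt2 and -0.66 to 0.15 for Csrp2, and in ND they were -0.32 to 0.18 for Casq2, -0.05 to 0.14 for Tnni2 and -0.81 to 0.22 for Csrp2.

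With 1 array left out, the 2-month differences of the 5 highest genes were 2.20 to 3.23 for Acta1 (highest without ND replicate 2), 2.01 to 2.86 for Casq2 (lowest without HFD replicate 1), 2.63 to 3.31 for Pkp2, 2.37 to 2.93 for Csrp2 and 2.14 to 2.71 for Fhl1. Signals near background limit what can be read for Tnni2 and Tnnt2.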

Other observations

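Of the 44 genes of the 6 lists that averaged below the intensity threshold, and so were not tested, 6 had an array more than 1 log2 unit above their own median. They were noticed after their values were seen and are given with no test. Myot, the Z-disc protein myotilin, read 5.97, 6.73 and 2.25 in HFD at 2 months, against 2.09, 2.32 and 2.32 in ND, and its median over the 18 arrays was 2.36. Thus 2 of the 3 HFD 2-month arrays held a clear signal and the third read like ND. Actn2, the actinin of the striated Z-disc, was highest on the same 2 arrays, with 4.08, 3.98 and 2.85 in HFD, against 2.43, 2.82 and 2.81 in ND. Limch1, an actomyosin regulator, was instead highest on replicates 2 and 3, with 2.83, 4.53 and 4.65 in HFD at 2 months, against 2.96, 2.80 and 3.44 in ND. The other 3 followed no group. The fast myosin Myh2 read 4.64 on HFD 2-month replicate 1, against a median of 2.31, and the myosin light chain Myl1 read 4.12 on ND 4-month replicate 3, against a median of 2.40. The desmosomal cadherin Dsg2 read 4.47 on ND 2-month replicate 2 and 4.18 on ND 1-month replicate 1, against a median of 2.95.

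The stromal surface marker Pdgfra, a growth factor receptor, fell in HFD at 2 months. It read 9.89, 9.80 and 9.88 in HFD, against 11.29, 10.85 and 10.67 in ND, a difference of -1.08 ± 0.25 (limma adjusted p = 0.0427). The call held in 17 of 28 other settings, with adjusted p between 0.00415 and 0.16. The other 8 stromal markers did not pass.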
